A study of Rattus norvegicus with 8 samples.

Results

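The genes of the glycolysis and gluconeogenesis pathway were followed through the hippocampus of control, kindled and drug-treated rats. A gene belonged to the pathway if the KEGG annotation deposited with the expression values gave it the entry rno00010, which held for 64 of the 22601 genes listed. RNA was sequenced from the hippocampus, dissected from both sides, of 8 wild-type Wistar rats of 180 to 220 g, 3 in the Con. group, 3 in the PTZ group and 2 in the Q808 group, with 1 library per rat. Pentylenetetrazole (PTZ) antagonises the GABA-A receptor, and giving low doses again and again kindles rats, so that later doses bring on stronger seizures. The PTZ and Q808 rats had 14 intraperitoneal injections of 35 mg/kg PTZ, spaced 48 h apart over 28 days, with a last dose of 60 mg/kg, while the Con. rats received saline. Afterwards the Q808 rats were given 30 mg/kg of the anticonvulsant compound Q808 by daily gavage for 28 days, and the Con. and PTZ rats were given its solvent. A further sub-convulsive dose of PTZ was injected into the PTZ and Q808 rats on the day after the last gavage, before the tissue was taken. No age is given for the rats, and with 2 rats in the Q808 group its spread rests on a single difference.

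Glycolysis splits glucose into pyruvate through a chain of enzymes, most of which exist as isoforms encoded by separate genes. In brain, *Hk1*, *Pfkm*, *Aldoa* and *Pkm* encode common forms, *Aldoc* is typical of astrocytes and *Eno2* of neurons, and the lactate dehydrogenase subunits from *Ldha* and *Ldhb* form tetramers that are usually linked to lactate production and lactate use. Gluconeogenesis, which runs mainly in liver and kidney, bypasses the irreversible steps with *Pck1*, *Fbp1* and *G6pc1*, and the annotation also takes in pyruvate dehydrogenase, acetate, alcohol and aldehyde enzymes.

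Values are the deposited FPKM, fragment counts scaled by transcript length and by the mapped fragments of the library, which can be set side by side between genes for that reason. Differences between groups are on the log2(FPKM + 0.1) scale, which understates the change of low genes, and were tested with limma across the 15593 genes with a mean of at least 0.1 FPKM. The limit for a single gene was an unadjusted p under 0.05, and a gene was called where its change was also more than 1.5-fold. Relative depth, estimated from the step that a single read makes in the lowest values, ran from 0.854 to 1.19 times that of Con.-1. The p-values measure the spread between these rats, and in whole tissue a smaller number of cells of a type and less RNA per cell cannot be told apart.

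The libraries Con.-3, PTZ-3 and Q808-1 stood apart from the other 5, 1 in each group. Averaged on the log2 scale, 8 striatum markers, all found, lay at 6.31 to 7.63 there and at 2.01 to 2.95 elsewhere. On the same scale 6 dentate granule cell markers were lower there (1.02 to 1.44, against 2.56 to 2.83), as were 6 hippocampal pyramidal cell markers (2.17 to 2.84, against 3.584 to 3.799), while 8 oligodendrocyte markers were higher (8.27 to 9.05, against 6.88 to 7.56). The part of this mixture in the results was not tested. Values without the 3 libraries, and within the sets, are therefore given beside the results they touch, where the set with high striatum markers holds 1 library per group and no replicate.

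The levels of most of these genes overlapped between the groups. No gene of the 46 tested passed the unadjusted limit in PTZ against Con. in the main fit (3.78% of all genes did). With the replicate numbers, which name different rats, as a block, 1, *Adpgk*, was lower (6.30% of all genes passed). The striatum marker covariate gave 1 gene (7.29%), leaving out PTZ-3 gave 1 (11.9%), and leaving out Con.-3 and PTZ-3 gave 5, all lower (19.5%). *Ldha* fell in the Q808 group relative to the PTZ group and *Aldh7a1* rose relative to the Con. group at that limit, each 1 gene of 46 (2.17%, against 2.19% and 4.28% of all genes) and neither after adjustment over all genes. *Ldha* missed the limit in 11 of 16 alternatives and *Aldh7a1* in 2 of 16, both of them without Q808-1. In the single library Q808-1, *Ldha*, *Aldoa*, *Gapdh* and *Pkm* were at their lowest and *Aldoc* was at its highest. Outside the pathway, *Slc2a1* and *Pdk4* rose in both PTZ-injected groups relative to the Con. group at the unadjusted limit. Each of these calls was lost under at least 1 alternative, except that of *Slc2a1* in PTZ against Con.

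Of the 64 genes, 46 had a mean of at least 0.1 FPKM and were tested, 41 had a mean of at least 1 FPKM and 14 of at least 100 FPKM. The other 18 were not tested, with means of up to 0.0855 FPKM, and *Adh4*, *Pck1* and *Pgk2* among them were listed at 0 in every library. The liver forms *Pck1*, *Fbp1*, *G6pc1* and *Pklr* all belonged to these 18. The sum over the 64 genes was 5889 ± 564.3 FPKM in the Con. group (SD, n = 3), 6226 ± 250.2 in the PTZ group (n = 3) and 5537 ± 631.5 in the Q808 group (n = 2). Single libraries ran from 5091 in Q808-1 to 6514 in PTZ-2, and the 3 groups overlapped.

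**Figure D1:**
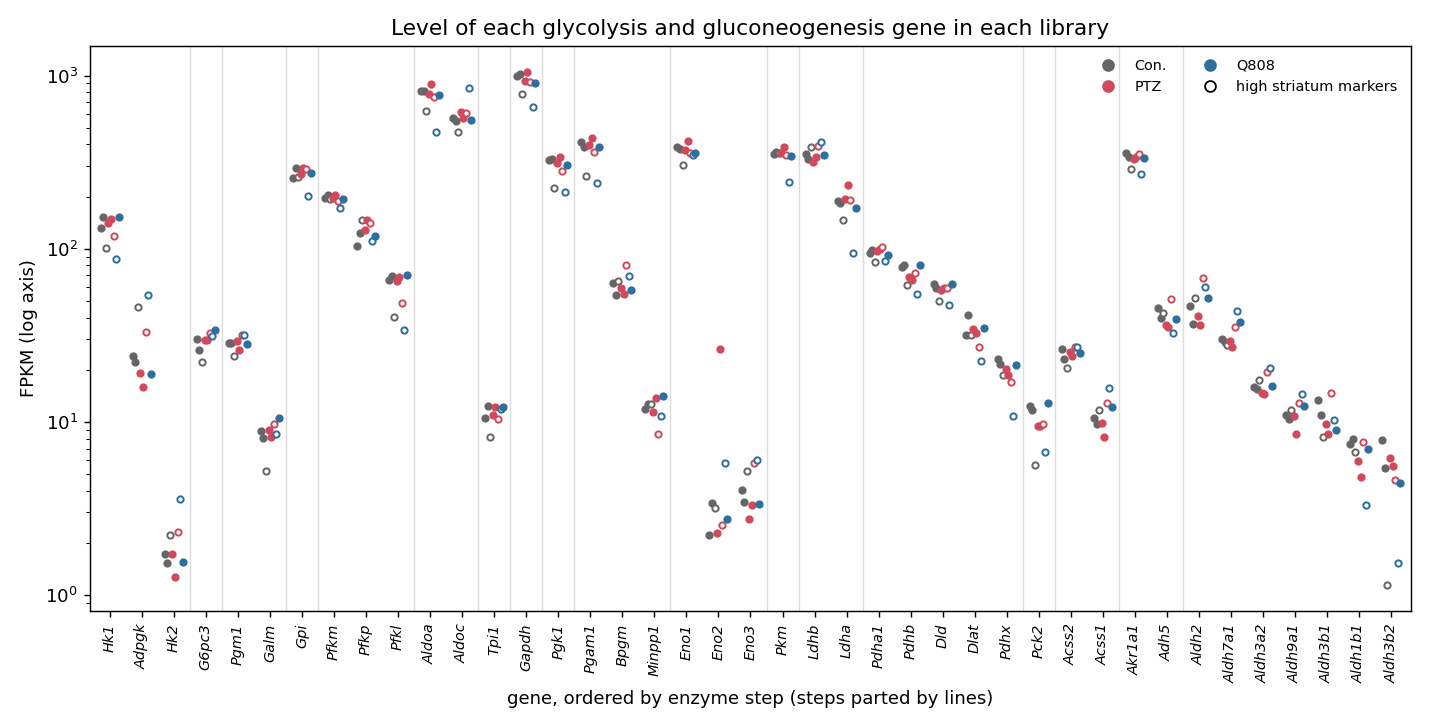
FPKM (log axis) of the 41 genes with a mean of at least 1 FPKM, in order of the enzyme steps, with a point for each of the 8 libraries coloured by group and drawn open for the 3 libraries with high striatum markers. Single values span from 1.14 FPKM for *Aldh3b2* in Con.-3 to 1054 FPKM for *Gapdh* in PTZ-2, and the points of the 3 groups overlap for most genes, while *Adpgk*, *Pfkl* and *Hk1* part by open and filled points.

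At the entry of glucose, *Hk1*, the main hexokinase of brain, was at 132, 153 and 101 FPKM in the Con. rats, 141, 148 and 118 in the PTZ rats and 86.8 and 152 in the Q808 rats. *Hk2*, the inducible isoform, was at 1.71, 1.53 and 2.22 FPKM in the Con. rats, 1.73, 1.27 and 2.29 in the PTZ rats and 3.58 and 1.54 in the Q808 rats. *Hk1* thus made up 59.96% to 89.6% of the summed FPKM of this step and *Hk2* 0.769% to 2.47%, with the lowest *Hk1* share and the highest *Hk2* share in Q808-1. *Adpgk*, an ADP-dependent kinase of glucose, was at 23.99, 22.2 and 45.8 FPKM in the Con. rats, 19.1, 15.9 and 33.04 in the PTZ rats and 54.3 and 18.8 in the Q808 rats, and was higher in each of the 3 libraries with high striatum markers than in any other. *Gpi*, which turns glucose 6-phosphate into fructose 6-phosphate, was at 255, 293 and 258 FPKM in the Con. rats, 269, 293 and 288 in the PTZ rats and 202 and 273 in the Q808 rats. Its lowest value lay in Q808-1, and the 3 groups otherwise shared a range. *Pgm1*, phosphoglucomutase, which links the step to glycogen, was at 28.7, 28.4 and 23.97 FPKM in the Con. rats, 29.2, 26.1 and 31.6 in the PTZ rats and 31.7 and 28.04 in the Q808 rats. *Galm*, which interconverts the anomers of aldoses such as galactose, was at 8.79, 8.03 and 5.20 FPKM in the Con. rats, 8.998, 8.12 and 9.65 in the PTZ rats and 8.49 and 10.4 in the Q808 rats. Con.-3 was lowest for both, and the groups overlapped.

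The phosphofructokinase step, which commits sugar to glycolysis, drew on 3 isoforms. *Pfkm*, the muscle form, was at 196, 203 and 193 FPKM in the Con. rats, 197, 204 and 188 in the PTZ rats and 171 and 193 in the Q808 rats. *Pfkp*, the platelet form, was at 103, 122 and 147 FPKM in the Con. rats, 129, 147 and 141 in the PTZ rats and 111 and 118 in the Q808 rats. *Pfkl*, the liver form, was at 65.8, 69.8 and 40.2 FPKM in the Con. rats, 65.2, 69.01 and 48.6 in the PTZ rats and 34 and 70 in the Q808 rats. *Pfkm* was the most even of the 3 and held 48.6% to 54.1% of the step in every library. *Pfkl* held 10.6% to 12.9% in Con.-3, PTZ-3 and Q808-1 and 16.4% to 18.4% in the other 5. *Pfkp* was lower in both Q808 libraries than in any PTZ library, but lay within the range of the Con. group.

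Aldolase was represented almost wholly by *Aldoa* and *Aldoc*. *Aldoa*, the widespread form, was at 816, 819 and 627 FPKM in the Con. rats, 780.1, 889 and 749 in the PTZ rats and 474 and 772 in the Q808 rats. *Aldoc*, the astrocytic form, was at 566, 549.5 and 471 FPKM in the Con. rats, 613, 571 and 606 in the PTZ rats and 844 and 554 in the Q808 rats. *Aldoc* supplied 39.1% to 44.7% of the step in 7 libraries and 64.0% in Q808-1, the single library in which it exceeded *Aldoa*. In Q808-1 the mean log2 level of 6 astrocyte markers was also the highest of all libraries, at 7.03 against 6.36 to 6.77 elsewhere, and its part in the *Aldoc* value was not tested.

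Several later steps of the chain were among the most abundant. *Gapdh*, glyceraldehyde-3-phosphate dehydrogenase, was at 1000, 1024 and 781 FPKM in the Con. rats, 928, 1054 and 924 in the PTZ rats and 656 and 904 in the Q808 rats, the highest gene of the pathway by mean level. *Pgk1*, which makes the first ATP of the chain, was at 325, 330.1 and 224 FPKM in the Con. rats, 313, 340 and 283 in the PTZ rats and 213 and 305 in the Q808 rats. *Pgam1*, the brain form of phosphoglycerate mutase, was at 415, 388 and 262 FPKM in the Con. rats, 398, 437 and 363 in the PTZ rats and 239 and 386 in the Q808 rats. For all 3 genes Con.-3 and Q808-1 were the lowest libraries. *Eno1*, the widespread enolase, was at 389, 375 and 305 FPKM in the Con. rats, 374, 419.5 and 357 in the PTZ rats and 348 and 358 in the Q808 rats. *Pkm*, which encodes the pyruvate kinase of brain, was at 351, 364 and 358 FPKM in the Con. rats, 357, 384 and 347 in the PTZ rats and 243 and 343 in the Q808 rats. *Pkm* stayed within 343 to 384 FPKM in 7 libraries and was at 243 in Q808-1.

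A few of these enzymes have near-identical entries in the annotation, between which their reads could be divided, so that their levels are uncertain. *Tpi1*, triosephosphate isomerase, was at 10.5, 12.3 and 8.12 FPKM in the Con. rats, 10.9, 12.2 and 10.4 in the PTZ rats and 11.9 and 12.2 in the Q808 rats, while an unnamed triosephosphate isomerase-like entry held 23.2 to 34.9 FPKM. *Eno2*, the neuronal enolase, was at 2.21, 3.40 and 3.16 FPKM in the Con. rats, 2.28, 26.2 and 2.52 in the PTZ rats and 5.82 and 2.73 in the Q808 rats, and an unnamed gamma-enolase-like entry held 1.78 to 11.8 FPKM. PTZ-2 was highest for both enolase entries, and for *Eno2* it stood far above every other library, including the other 2 PTZ rats. The low *Tpi1* and *Eno2* levels beside the far higher neighbouring steps were measured where reads can fall to more than 1 entry. Those 2 unnamed entries were also far below the neighbouring steps, and the part of divided reads in the low levels was not tested. Further entries were an extra *Gapdh* locus at 64.7 to 94.1 FPKM and *Pkm-ps20*, a pyruvate kinase-like entry, at 8.51 to 16.3 FPKM.

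Around the main chain, *Pdha1*, the catalytic alpha subunit of pyruvate dehydrogenase, was at 93.9, 98.1 and 83.6 FPKM in the Con. rats, 97.2, 99.5 and 102 in the PTZ rats and 85.2 and 91.5 in the Q808 rats. The other subunits *Pdhb*, *Dld*, *Dlat* and *Pdhx* lay between 10.7 and 80.6 FPKM in single libraries, and Q808-1 was lowest for each of these 4. For gluconeogenesis, *G6pc3*, the widespread glucose-6-phosphatase, was at 30.2, 25.8 and 22.2 FPKM in the Con. rats, 29.7, 29.7 and 32.5 in the PTZ rats and 31.3 and 33.7 in the Q808 rats. Both Q808 libraries of *G6pc3* were above every Con. library. *Pck2*, the mitochondrial phosphoenolpyruvate carboxykinase, was at 12.3, 11.7 and 5.63 FPKM in the Con. rats, 9.50, 9.45 and 9.65 in the PTZ rats and 6.65 and 12.9 in the Q808 rats, low in Con.-3 and Q808-1. *Fbp2*, the muscle fructose-1,6-bisphosphatase, hardly passed the lower limit, at 0.220, 0.0463 and 0.111 FPKM in the Con. rats, 0.254, 0.198 and 0.387 in the PTZ rats and 0.0635 and 0.159 in the Q808 rats. For *Fbp2* the PTZ rats overlapped with the Con. rats, and both Q808 rats lay below every PTZ rat.

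In the acetate and aldehyde branch, *Acss2*, the cytosolic acetyl-CoA synthetase, was at 26.4, 22.99 and 20.4 FPKM in the Con. rats, 25.4, 23.96 and 26.9 in the PTZ rats and 26.99 and 24.96 in the Q808 rats. *Acss1*, the mitochondrial form, was at 10.6, 9.74 and 11.6 FPKM in the Con. rats, 9.78, 8.14 and 12.9 in the PTZ rats and 15.7 and 12.2 in the Q808 rats. Both Q808 libraries of *Acss1* were above every Con. library. *Akr1a1*, an aldehyde reductase, was at 355, 337 and 288 FPKM in the Con. rats, 328, 337 and 353 in the PTZ rats and 269.8 and 335 in the Q808 rats. *Aldh2*, the mitochondrial enzyme that oxidises acetaldehyde, was at 46.9, 36.6 and 52.1 FPKM in the Con. rats, 40.6, 36.4 and 67.8 in the PTZ rats and 60.01 and 52.05 in the Q808 rats. *Akr1a1* was lowest in Q808-1 and *Aldh2* highest in PTZ-3, and the groups overlapped for both. *Aldh9a1*, which serves carnitine synthesis, was at 10.9, 10.4 and 11.7 FPKM in the Con. rats, 10.8, 8.46 and 12.9 in the PTZ rats and 14.5 and 12.4 in the Q808 rats. *Aldh1b1*, a mitochondrial form, was at 7.45, 7.997 and 6.71 FPKM in the Con. rats, 5.91, 4.81 and 7.64 in the PTZ rats and 3.32 and 6.998 in the Q808 rats. *Aldh3b2*, a form acting on lipid aldehydes, was at 7.85, 5.43 and 1.14 FPKM in the Con. rats, 6.17, 5.57 and 4.64 in the PTZ rats and 1.52 and 4.44 in the Q808 rats. *Aldh9a1* was higher in both Q808 libraries than in any Con. library, while *Aldh1b1* was lowest in Q808-1 and *Aldh3b2* was low in Con.-3 and Q808-1. Of the remaining tested genes, single libraries of *Bpgm*, which makes 2,3-bisphosphoglycerate, ran from 53.8 to 80.3 FPKM, of *Adh5*, which clears formaldehyde, from 32.4 to 50.9, of *Aldh3a2* from 14.5 to 20.4, of *Minpp1* from 8.50 to 14.1, of *Aldh3b1* from 8.12 to 14.6 and of the muscle enolase *Eno3* from 2.76 to 5.98. *Eno4*, *Aldh3a1* and the sperm form *Gapdhs* stayed low, at 0.241 to 0.642, 0.172 to 0.767 and 0.0945 to 0.995 FPKM.

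Con.-3 and Q808-1 held many of the lowest values. Among the 41 genes with a mean of at least 1 FPKM, Q808-1 was the lowest library for 17 (41.5%, against 21.0% of all genes at that level) and Con.-3 for 11 (26.8%, against 13.9%). Q808-1 was also the highest library for 11 of the 41 (26.8%, against 22.95% of all genes). The 3 libraries with high striatum markers had a lower mean than the other 5 for 26 of the 41 genes (against 41.5% of all genes), with a median log2 difference of -0.17, against 0.078 over all genes at that level. The 2 sets did not overlap for 15 of the 41 (36.6%, against 26.6% of all genes). *Pfkl*, *Hk1*, *Pgam1*, *Pdhx*, *Pgk1*, *Aldoa*, *Eno1* and *Pfkm* were lower in the set of 3, by log2 differences of -0.74 to -0.11. *Adpgk*, *Eno3*, *Hk2*, *Aldh2*, *Aldh3a2*, *Bpgm* and *Ldhb* were higher there, by 0.24 to 1.13. These sets were formed from the striatum markers and not by treatment, and no test was made between them.

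**Figure D2:**
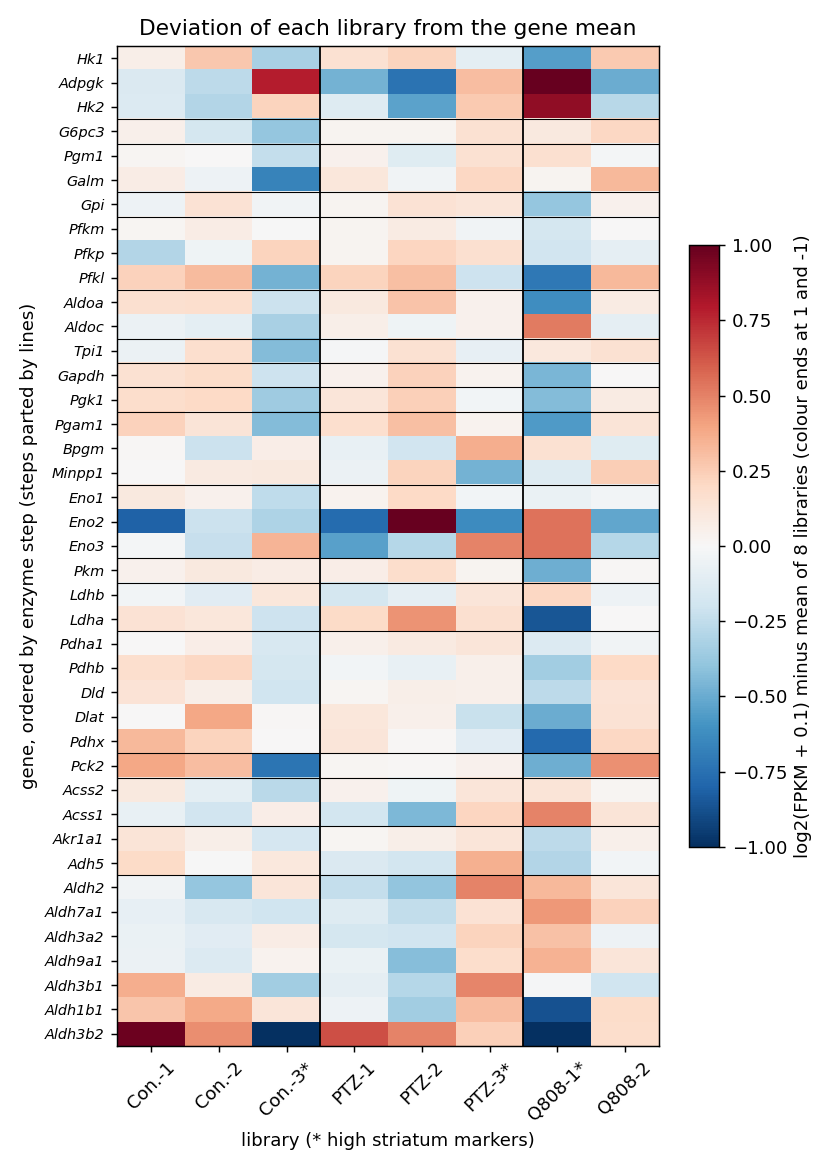
Deviation of each library from the mean of the 8 libraries on the log2(FPKM + 0.1) scale, for the 41 genes with a mean of at least 1 FPKM in order of the enzyme steps, with colours ending at 1 and -1 and an asterisk on the 3 libraries with high striatum markers. Blue runs down the columns of Q808-1 and Con.-3 through much of the main chain, while *Adpgk*, *Hk2*, *Eno3*, *Ldhb* and *Bpgm* are above their mean in both. Over all 41 genes Q808-1 was the lowest library for 17 and Con.-3 for 11, and Q808-2 stays near the mean.

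The PTZ and Con. groups were compared to ask whether the pathway differed after PTZ. They differ both in kindling and in the further PTZ dose given before the tissue was taken, and these cannot be told apart. No gene of the 46 tested rose or fell in the PTZ group by limma, at an unadjusted p under 0.05 (3.78% of all 15593 genes passed, 2.24% higher and 1.53% lower) or with the fold limit as well (2.53%, 1.69% higher and 0.84% lower), and the smallest Benjamini-Hochberg adjusted p was 0.999. The values of 31 genes were above 0 and of 15 below (32.6% below, against 57% of all genes), with a median log2 difference of 0.075, against -0.041 over all genes tested. Without Con.-3 and PTZ-3 the median was -0.031, against -0.11 over all genes, with 20 values above 0 and 26 below. For 27 of the 46 genes (58.7%, against 28.1% of all genes) the whole 95% confidence interval lay within a 1.5-fold change either way, while for the other 19 a change of that size was not excluded by its interval. *Gapdh*, *Pkm* and *Pfkm*, for instance, had intervals of -0.36 to 0.47, -0.27 to 0.31 and -0.27 to 0.25.

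Groups did not overlap for *Ldha* and *Aldoc*, both higher in every PTZ library than in any Con. library, which is 4.35% of the genes tested against 9.15% over all genes (4.11% higher and 5.03% lower). *Ldha*, which encodes the lactate dehydrogenase subunit linked to lactate production, was at 189, 184 and 147 FPKM in the Con. rats, 194, 233 and 190.5 in the PTZ rats and 94.1 and 171 in the Q808 rats. Its lowest PTZ value lay just above the highest Con. value (log2 difference 0.25, SE 0.15). *Aldoc* had a log2 difference 0.18, SE 0.14. The smallest p-values belonged to *Fbp2* (log2 difference 0.79, SE 0.43), *G6pc3* (log2 difference 0.24, SE 0.15), *Ldha*, *Aldh1b1* (log2 difference -0.29, SE 0.21) and *Galm* (log2 difference 0.31, SE 0.23), none of which passed in limma (adjusted p of 0.999 each). The largest value, 0.88 for *Eno2* (SE 0.88), rests on PTZ-2, since the other PTZ rats were at 2.28 and 2.52 FPKM.

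Replicate numbers name different rats, and the labels give no pairing beyond the number. Deviations of same-numbered libraries correlated at 0.212, 0.299 and 0.422, the last for PTZ-3 and Con.-3, both with high striatum markers. PTZ-1 correlated better with Con.-2 (0.322). Every pair of a library with high and a library with low striatum markers correlated negatively, at -0.427 to -0.206. These correlations therefore do not set a pairing by number apart from the striatum markers. With the number as a block 1 gene of the 46 passed an unadjusted p under 0.05 by limma (6.30% of all genes). This was *Adpgk*, lower in the PTZ rat of each of the 3 same-numbered pairs (log2 difference -0.43, SE 0.12, adjusted p = 0.724 by limma with the block, against SE 0.36 and adjusted p = 0.999 without it). The part of the striatum markers in this result was not tested, and *Adpgk* was higher in the libraries with high ones (log2 difference 1.13). It was also lower when Con.-3 and PTZ-3 were left out (-0.40, adjusted p = 0.196 by limma), a setting in which 5 genes of the 46, all lower in the PTZ group, and 19.5% of all genes passed an unadjusted p under 0.05. The other 4 were *Aldh1b1* (-0.53), *Pdhb* (-0.24), *Pck2* (-0.33) and *Aldh3b1* (-0.41), with adjusted p of 0.194 to 0.237 by limma.

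The Q808 and PTZ groups were compared to ask whether the pathway differed after treatment of kindled rats. The paper reports lower seizure scores and a longer latency in Q808 rats after the further PTZ dose. The drug and a milder last seizure cannot be told apart here. *Ldha* was the 1 gene of 46 called, and it fell in the Q808 group, which is 2.17% of the genes tested against 1.92% over all genes (0.564% lower). It was also the 1 gene at an unadjusted p under 0.05, against 2.19% of all genes (0.68% lower). *Ldha* was at 132 ± 54.1 FPKM in the Q808 group (SD, n = 2) and 206 ± 23.4 in the PTZ group (n = 3). The fitted ratio was 0.619, with a log2 difference -0.69, SE 0.29 and an adjusted p of 0.952 by limma (0.386 to 1 over the alternatives), and an interval of -1.38 to -0.00083. Both Q808 libraries were below every PTZ library, Q808-1 at 94.1 FPKM by far and Q808-2 at 171 FPKM by little, below the lowest PTZ value of 190.5. The call rests on Q808-1: without it the log2 difference was -0.26 and did not pass, without Q808-2 it was -1.12 and passed the unadjusted limit, and without PTZ-3 and Q808-1 it was -0.32 and did not pass. *Ldha* also missed the unadjusted limit without any 1 of the PTZ libraries, with either other pseudocount, with quantile normalization, without the trend and with either other filter on low values, at log2 differences of -0.74 to -0.60. Between PTZ-3 and Q808-1, both with high striatum markers, the difference was -1.02.

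*Ldhb*, which encodes the lactate dehydrogenase subunit linked to lactate use, was at 352, 332 and 388 FPKM in the Con. rats, 318, 337 and 390.4 in the PTZ rats and 414 and 346 in the Q808 rats. *Ldhb* was highest in Q808-1, where *Ldha* was lowest, and did not pass in limma (log2 difference 0.12, SE 0.21 for Q808 against PTZ). The summed FPKM of the step varied less, at 541, 516 and 535 in the Con. rats, 512, 570 and 581 in the PTZ rats and 508 and 517 in the Q808 rats. *Ldha* supplied 18.5% of that sum in Q808-1 and 27.5% to 40.8% in the other libraries.

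The bases before the start of both subunit genes are shown because the pair differs in the letters ACGTG. These letters are a form of the core of the hypoxia response element and also the core of the E-box CACGTG. Both elements are often described in promoters of glycolytic genes. GCGTG, another form of the core of the hypoxia response element, was not counted and stands in both stretches. The stretches are the 250 bases before each RefSeq start in the GRCr8 assembly, read 5′ to 3′ on the strand of the gene, with ACGTG on either strand (ACGTG or CACGT) in capitals, where CACGTG counts for both.
*Ldha*, chr1:106507842-106508091, plus strand: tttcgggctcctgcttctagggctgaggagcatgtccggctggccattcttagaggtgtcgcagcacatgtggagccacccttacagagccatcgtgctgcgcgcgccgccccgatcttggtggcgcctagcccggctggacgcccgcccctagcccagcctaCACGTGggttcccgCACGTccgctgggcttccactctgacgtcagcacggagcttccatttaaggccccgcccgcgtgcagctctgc
*Ldhb*, chr4:177177409-177177658, minus strand: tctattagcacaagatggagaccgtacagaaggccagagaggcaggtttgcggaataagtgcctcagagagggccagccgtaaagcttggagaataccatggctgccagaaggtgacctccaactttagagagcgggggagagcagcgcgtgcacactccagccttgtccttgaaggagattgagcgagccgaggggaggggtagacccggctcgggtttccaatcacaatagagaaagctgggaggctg
The *Ldha* stretch held 3 matches on both strands, 2 of them in 1 CACGTG, and the *Ldhb* stretch held 0. Of the 41 genes with a mean of at least 1 FPKM, 37 had an entry among the RefSeq promoters and 14 of these (37.8%) held a match in at least 1 stretch, against 23.3% of the 10164 genes with an entry and a mean of at least 1 FPKM and 18.1% of all 27457 genes with an entry. *G6pc3* and *Pdhb* had the most matches, 4 each, while *Pkm*, *Eno1*, *Gpi*, *Hk2* and *Pfkp* had none. A match is a short run of letters and not a measured binding site.

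Of the other genes, none passed between Q808 and PTZ. *Aldh3b2* (log2 difference -1.02, SE 0.46), *Aldh7a1* (log2 difference 0.41, SE 0.19), *Fbp2* (log2 difference -0.85, SE 0.48) and *Acss1* (log2 difference 0.45, SE 0.26) came nearest in limma. The values of 29 genes were below 0 and of 17 above (63% below, against 38.3% of all genes), with a median log2 difference of -0.11, against 0.097 over all genes. Groups did not overlap for 9 of the 46 (19.6%, against 15.6% of all genes). *Ldha*, *Aldh3b2*, *Fbp2*, *Pfkp*, *Pkm*, *Gapdhs*, *Gapdh* and *Pdha1* were lower in both Q808 libraries than in every PTZ library (17.4%, against 5.02%), and *Aldh7a1* was higher (2.17%, against 10.6%). Without Q808-1 alone the direction held, with a median of -0.025 and 28 values below 0, whereas without both PTZ-3 and Q808-1 the median was 0.057, against 0.16 over all genes, with 28 values above 0 and 18 below. The interval lay within a 1.5-fold change for 9 of the 46 genes (19.6%, against 13.2%), so that for most genes the 2 Q808 rats could not settle a change of that size.

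**Figure D3:**
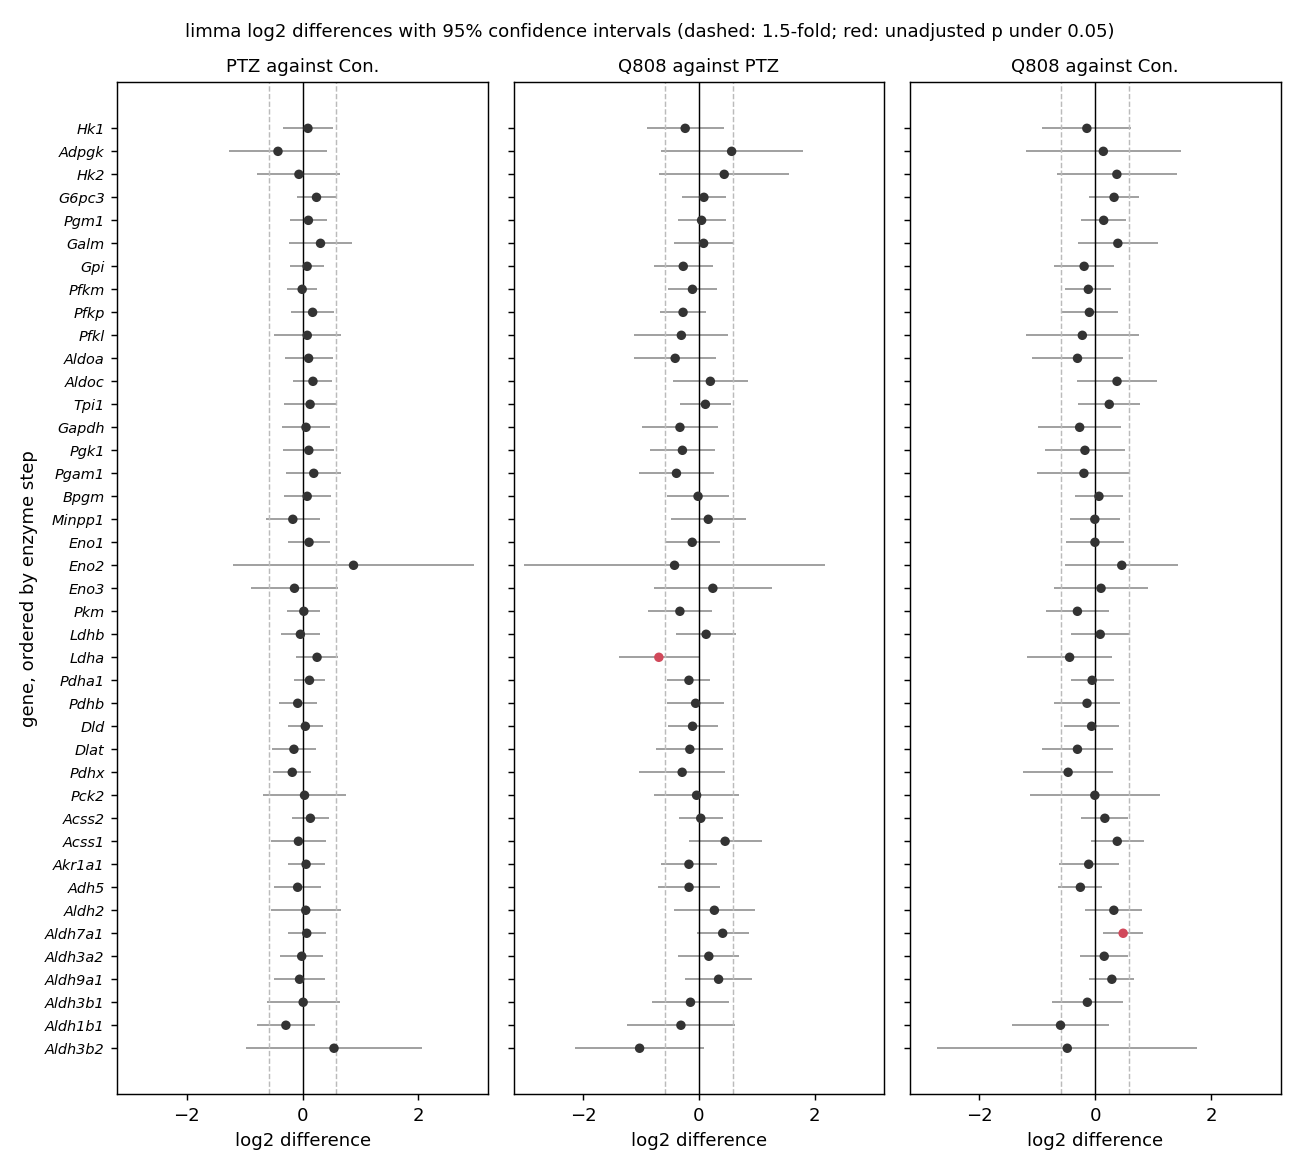
limma log2 differences (points) with 95% confidence intervals (bars) for the 41 genes with a mean of at least 1 FPKM in the 3 comparisons, with dashed lines at a 1.5-fold change and red points at an unadjusted p under 0.05. The 2 red points are *Ldha* at -0.69 in Q808 against PTZ and *Aldh7a1* at 0.48 in Q808 against Con., and most intervals are shorter in PTZ against Con. than in the other panels.

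Q808 and Con. rats were also compared, which shares the Q808 libraries with the previous comparison and the Con. libraries with the first. These groups differ in kindling, in the further PTZ dose and in Q808, which cannot be told apart. *Aldh7a1*, an aldehyde dehydrogenase of lysine breakdown whose loss causes pyridoxine-dependent epilepsy in people, was the 1 gene of 46 at an unadjusted p under 0.05 (2.17%, against 4.28% of all genes, 3.68% higher and 0.596% lower), and it rose in the Q808 group. It was at 30.2, 28.8 and 27.9 FPKM in the Con. rats, 29.4, 27.1 and 35.4 in the PTZ rats and 43.4 and 37.7 in the Q808 rats. The PTZ rats overlapped with the Con. rats, and both Q808 libraries were above all 6 others, Q808-2 by little over PTZ-3. Its level was 40.6 ± 4.03 FPKM in the Q808 group (SD, n = 2) and 28.96 ± 1.17 in the Con. group (n = 3). The fitted ratio to Con. was 1.40 (log2 difference 0.48, SE 0.14, interval 0.14 to 0.83, adjusted p = 0.901 by limma, 0.359 to 1 over the alternatives), below the 1.5-fold limit, so that no gene was called (3.46% of all genes were, 3.07% higher and 0.391% lower). The difference was 0.35 among the libraries with low striatum markers and 0.64 among those with high ones. Of the alternatives, it missed the unadjusted limit without Con.-2 (0.48) and without Q808-1 (0.38).

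Groups did not overlap between Q808 and Con. for 6 of the 46 genes (13%, against 20% of all genes). *Aldh7a1*, *G6pc3*, *Aldh9a1* and *Acss1* were higher in both Q808 libraries than in any Con. library, and *Pkm* and *Adh5* were lower. None of the last 5 passed in limma, with *Acss1* (log2 difference 0.38, SE 0.18), *G6pc3* (log2 difference 0.33, SE 0.17), *Aldh9a1* (log2 difference 0.29, SE 0.16) and *Aldh1b1* (log2 difference -0.60, SE 0.34) the next by p. The values of 19 genes were above 0 and of 27 below, with a median of -0.052, against 0.045 over all genes. For 9 of the 46 genes the interval lay within a 1.5-fold change (19.6%, against 19.7% of all genes).

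By role, the 24 tested genes of the main chain had medians of 0.086 in PTZ against Con., -0.18 in Q808 against PTZ and -0.075 in Q808 against Con. The 5 tested subunits of pyruvate dehydrogenase had medians of -0.085, -0.16 and -0.14, and all 5 were below 0 in both comparisons with the Q808 group (38.3% and 44.7% of all genes were). In the libraries with low striatum markers 1 of the 5 was below 0 in Q808 against PTZ and 3 in Q808 against Con. The 12 tested genes of the acetate, alcohol and aldehyde branch had medians of 0.032, -0.036 and 0.16. Of the 15 genes that the annotation also places in the HIF-1 signalling pathway, 13 were tested. Of these, 4 were below 0 in PTZ against Con. (57% of all genes were), and 10 in Q808 against PTZ (38.3% of all genes), where 1, *Ldha*, passed. In Q808 against Con. 10 were below 0 (44.7% of all genes were). In the libraries with low striatum markers the counts below 0 were 7, 7 and 9, in the same order. These medians carry no test, and Q808-1 enters both comparisons with the Q808 group.

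Ratios between isoforms were taken within each library, where the scaling between libraries all but cancels, and compared by two-sided exact permutation tests, which cannot go below p = 0.1 with 3 libraries against 3 or 2. None of the 21 differences, 7 ratios in 3 comparisons, could therefore pass, and the exact p ran from 0.2 to 1 (adjusted 0.84 to 1). The log2 ratio of *Ldha* to *Ldhb* was -0.90, -0.85 and -1.40 in the Con. rats, -0.71, -0.54 and -1.03 in the PTZ rats and -2.13 and -1.02 in the Q808 rats. Q808-1 was far below all others, Q808-2 was next to PTZ-3, and the Q808 and PTZ groups overlapped (difference -0.82, SE 0.58, exact permutation p = 0.2). The *Pfkp* to *Pfkm* ratio and the *Acss2* to *Acss1* ratio were lower in both Q808 libraries than in every PTZ library, with log2 differences of -0.16 (SE 0.072) and -0.42 (SE 0.19), each at an exact permutation p of 0.2. The *Aldoc* to *Aldoa* ratio was -0.64 to -0.30 in 7 libraries and 0.83 in Q808-1.

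The values of 3 ratios lay apart between the sets of libraries, which is a description with no test. The *Hk2* to *Hk1* ratio was -5.63 to -4.56 on the log2 scale in the 3 libraries with high striatum markers and -6.76 to -6.19 in the other 5. The *Pfkl* to *Pfkm* ratio was -2.33 to -1.95 and -1.59 to -1.46, and that of *Ldha* to *Ldhb* -2.13 to -1.03 and -1.02 to -0.54, so that the sets did not overlap for these 3 ratios, the last by a narrow margin. Within the set with low striatum markers the differences of Q808 from PTZ were -0.016 for *Hk2* to *Hk1*, 0.12 for *Pfkl* to *Pfkm* and -0.40 for *Ldha* to *Ldhb*, with 1 Q808 library and no test.

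**Figure D4:**
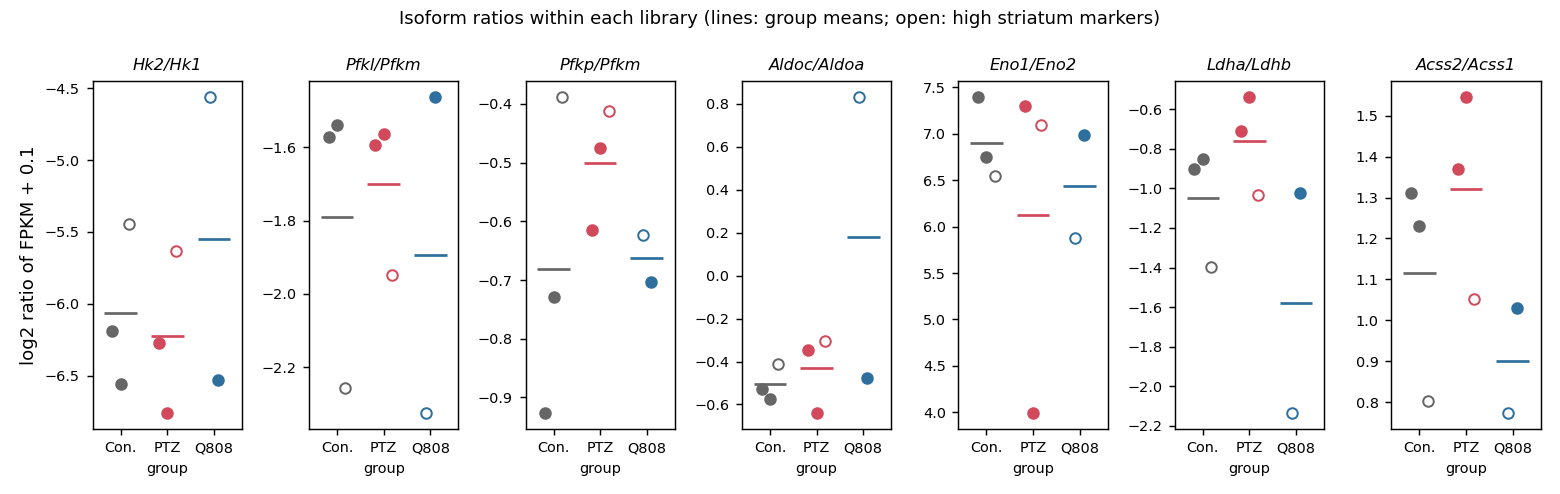
log2 ratios of FPKM + 0.1 between isoforms within each library, in 7 panels with their own vertical axes, with points coloured by group, drawn open for the 3 libraries with high striatum markers, and lines at the group means. The open points lie above the filled ones for *Hk2*/*Hk1* and below them for *Pfkl*/*Pfkm* and *Ldha*/*Ldhb*, and Q808-1 stands alone at 0.83 for *Aldoc*/*Aldoa*.

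Genes next to the pathway were read from 6 lists of glucose and lactate transporters, fructose 2,6-bisphosphate enzymes, pyruvate dehydrogenase kinases and phosphatases, glycogen enzymes, pentose phosphate enzymes and hypoxia-inducible regulators, 58 of whose 59 genes were tested. In PTZ against Con., 4 of the 58 were called, all higher (6.90%, against 2.53% of all genes), in Q808 against PTZ 0 (against 1.92%), and in Q808 against Con. 6, of which 5 were higher and 1 lower (10.3%, against 3.46%). The lists were chosen with earlier results of these data known, so these shares are a description and not a test of the lists. No gene of the lists reached an unadjusted p under 0.05 in Q808 against PTZ, where 13 of the 14 glycogen enzymes had values above 0, with a median of 0.20 against 0.097 over all genes. The 4 tested enzymes of fructose 2,6-bisphosphate and the 8 of the pentose phosphate pathway held no called gene in any comparison. *Slc2a1*, the glucose transporter of the blood-brain barrier and astrocytes, was at 50.2, 52.05 and 58.7 FPKM in the Con. rats, 94.5, 105 and 84.5 in the PTZ rats and 131 and 72.2 in the Q808 rats. The mean log2 level of 6 endothelium markers was 3.02 to 3.19 in the Con. rats and 2.75 to 3.86 in the PTZ rats. In Q808-1 it was 4.23 and in Q808-2 3.23, and its part in the *Slc2a1* values was not tested. For *Slc2a1* all PTZ and Q808 libraries were above every Con. library. It rose in PTZ against Con. (log2 difference 0.82, SE 0.13, adjusted p = 0.999 by limma) and relative to Con. also in Q808 (log2 difference 0.86, SE 0.27, adjusted p = 0.901 by limma), which share the Con. libraries. Its adjusted p over the alternatives ran from 0.0241 to 1 in the former and from 0.359 to 1 in the latter, where the differences in the low and high striatum sets were 0.50 and 1.15.

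*Pdk4*, a kinase that switches pyruvate dehydrogenase off, was at 3.85, 5.69 and 8.55 FPKM in the Con. rats, 14.9, 11.4 and 9.29 in the PTZ rats and 28.6 and 10.98 in the Q808 rats. Every PTZ and Q808 library was above the highest Con. library, Con.-3, and it rose in the PTZ group (log2 difference 1.01, SE 0.32) and the Q808 group relative to Con. (log2 difference 1.61, SE 0.51), with adjusted p of 0.999 and 0.901 by limma. The difference of PTZ from Con. was 1.46 in the set with low striatum markers and 0.12 between Con.-3 and PTZ-3, and that of Q808 from Con. was 1.21 and 1.73. Among the hypoxia-inducible regulators, *Adm*, adrenomedullin, was at 0.579, 0.345 and 0.365 FPKM in the Con. rats, 1.29, 1.52 and 0.960 in the PTZ rats and 0.473 and 0.837 in the Q808 rats, and it rose in PTZ against Con. (log2 difference 1.36, SE 0.33), with every PTZ library above every Con. library. *Vhl*, which marks HIF subunits for breakdown, rose in the same comparison (log2 difference 0.63, SE 0.24) at 21.2, 22.02 and 18.6 FPKM in the Con. rats, 40.8, 36.6 and 21.6 in the PTZ rats and 24.04 and 23.2 in the Q808 rats, with PTZ-3 inside the Con. range (0.83 in the low and 0.21 in the high striatum set). *Ddit4*, a stress-induced inhibitor of mTOR, rose in Q808 against Con. (log2 difference 0.66, SE 0.25, with 0.23 in the low and 1.18 in the high striatum set). So did *Pygm*, muscle glycogen phosphorylase (log2 difference 0.62, SE 0.24, with 0.23 and 1.18), and *Slc2a4*, the insulin-sensitive glucose transporter (log2 difference 0.90, SE 0.30, with 1.096 and 0.68). *Slc2a13*, a myo-inositol transporter, fell by 0.61 on the log2 scale relative to the Con. group (-0.19 and -1.097 in the sets). Each of these calls missed the unadjusted limit under at least 1 alternative, except *Slc2a1* and *Adm* in PTZ against Con. The adjusted p of each was 0.901 or more by limma. At an adjusted p under 0.05 no gene of the pathway passed in any comparison, against 1 of all genes (0.00641%) for Q808 relative to Con. and none otherwise.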

How the data were processed

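RNA-seq covered the hippocampus of 8 rats (3 Con., 3 PTZ, 2 Q808), each with its own library. The authors deposited FPKM for 22601 genes per library, with KEGG annotation, and named Trimmomatic, HISAT2, Bowtie2, SAMtools, Cufflinks, StringTie, HTSeq and DESeq in their processing notes without versions. The genome build is not given in the sources used here, and the read counts behind DESeq were not analysed here. FPKM carry no counts, so no counting error was attached. Every column belonged to a labelled sample, and groups followed the labels.

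Symbols of all 64 genes, and promoter sequences, came from RefSeq GRCr8, used otherwise for names only. The genes, lists, isoform pairs and roles were chosen with earlier results of these data known, and the roles of *Aldoart2* and *Pdhx* were assigned after values were seen. limma 3.58.1 in R 4.3.3 (empirical Bayes with trend) was fitted to log2(FPKM + 0.1) of the 15593 genes with a mean of at least 0.1 FPKM, each comparison on its own 2 groups, with Benjamini-Hochberg adjustment over all of them, and was tested on simulated data. Isoform ratios used exact permutation tests over all arrangements of the libraries, computed in Python 3.11.15 with numpy 2.4.6. The t limits of the confidence intervals came from scipy 1.17.1, and pandas 2.3.3 and matplotlib 3.10.9 were also used. Values in every library were printed for genes at an unadjusted p under 0.05, the highest gene of each step, the isoform pairs and the 5 smallest p-values per comparison; *Adpgk* and the other genes listed by name without them were chosen after their values were seen. From the neighbouring lists, called genes were named.

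Same-numbered PTZ and Con. libraries deviated together across genes (correlations 0.212, 0.299 and 0.422), although PTZ-1 correlated best with Con.-2 (0.322). Every same-numbered pair was over 0.1, which met the rule for pairing by the replicate numbers in the labels, although these name different rats. The rule cannot set the number apart from the striatum markers, since pairs of a library with high and a library with low markers correlated at -0.427 to -0.206. Counts and intervals come from the fit without the block, and the blocked fit is given beside them where it changed a call. Alternative settings used pseudocounts of 1 and 0.01, all genes above 0, a mean of at least 1 FPKM, all 3 groups in a fit, median ratio scaling, quantile normalization, no trend, the replicate block, the striatum marker mean as a covariate, no library with high striatum markers, and each library left out in turn.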

Additional observations from a re-analysis of the deposited data

How the results depend on the processing

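The counts at an unadjusted p under 0.05 were 0 for PTZ against Con., 1 for Q808 against PTZ and 1 for Q808 against Con., in this order throughout, and those with the fold limit 0, 1 and 0. With the replicate block they were 1, 4 and 1, against 6.30%, 12.9% and 7.52% of all genes. With the fold limit as well they were 0, 2 and 0, against 3.95%, 12.1% and 6.90%. The Q808 groups share only 2 numbers with the others, 1 of each 2 same-numbered pairs correlated negatively (-0.295 and -0.379), and the block takes out PTZ-3 or Con.-3. With the striatum marker covariate they were 1, 3 and 4, against 7.29%, 6.15% and 11.4% of all genes. With the fold limit as well they were 1, 2 and 0, against 3.94%, 3.94% and 7.28%. Without the 3 libraries with high striatum markers PTZ against Con. gave 5, all lower in PTZ (0 with the fold limit), against 19.5% of all genes. This setting leaves 1 Q808 library, so that only log2 differences are given for the Q808 group. Those from PTZ were 0.44 for *Aldh2*, 0.42 for *Aldh7a1* and 0.44 for *Pck2*, and that from Con. was 0.35 for *Aldh7a1*. In Q808 against PTZ pseudocounts of 1 and 0.01 and a mean of at least 1 FPKM gave 0 and 0, against 2.29%, 2.09% and 1.89% of all genes at the unadjusted limit. All 3 groups in a fit gave 2, against 3.42%. With all genes above 0, Q808 against Con. gave 3 and 2 (5.27% and 3.69% of all genes), which adds the low genes *Fbp1* and *Adh1c*. In Q808 against PTZ the 1 gene was then *Fbp1* in place of *Ldha*. Quantile normalization and the fit without the trend also gave 1 called gene there, and it was not *Ldha* (unadjusted p of 0.0739 and 0.0782 by limma).

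Leaving out each library gave 0 to 1, 0 to 11 and 0 to 10 genes, and 0 to 0, 0 to 8 and 0 to 7 with the fold limit; 11 and 10, with 8 and 7, came without Q808-2, and without Q808-1 both comparisons gave 0, where the lone Q808 rat is assumed to vary like the other group. The medians ran over these from -0.0083 to 0.13, -0.21 to -0.025 and -0.16 to 0.039. The median became -0.20 in Q808 against PTZ with median ratio scaling and, without the 3 libraries, 0.057 in that comparison and -0.031 in PTZ against Con.. The cause was not tested.

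Without the 3 libraries ratio differences turned for *Pfkl*/*Pfkm* (-0.022, 0.12 and 0.095 in the 3 comparisons) and *Hk2*/*Hk1* (-0.016 in Q808 against PTZ, -0.16 in Q808 against Con.). Leaving out single libraries also turned, in PTZ against Con., *Hk2*/*Hk1* (-0.45 to 0.15), *Pfkl*/*Pfkm* (-0.15 to 0.21) and *Eno1*/*Eno2* (-1.35 to 0.30), in Q808 against PTZ *Hk2*/*Hk1* (-0.31 to 1.66), *Pfkl*/*Pfkm* (-0.62 to 0.24), *Aldoc*/*Aldoa* (-0.046 to 1.26) and *Eno1*/*Eno2* (-0.76 to 0.89), and in Q808 against Con. *Hk2*/*Hk1* (-0.47 to 1.504), *Pfkl*/*Pfkm* (-0.54 to 0.33), *Pfkp*/*Pfkm* (-0.10 to 0.16), *Eno1*/*Eno2* (-1.02 to 0.090) and *Ldha*/*Ldhb* (-1.09 to 0.028). Depth limits the lowest genes most, such as *Fbp2*.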
